A study of Rattus norvegicus with 15 samples.

Results

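The genes described here are a set of 50 genes of the cell division cycle: G1/S cyclins and their kinases, the replication machinery, suppliers of deoxynucleotides, mitotic cyclins and kinases, kinetochore and spindle genes, the proliferation markers Mki67 and Top2a, and the inhibitors of cyclin-dependent kinases (CDKs). A gene was a member where the gene column of the deposited count table held its symbol. Of the 50 genes, 48 were found in the table of 32623 genes, and all 48 were among the 14417 genes that passed the filter on low counts and were tested. Ccnb2 and E2f1 are not analysed here.

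Poly(A) RNA from whole livers of male Wistar rats was sequenced in 3 groups. Control rats (n = 4) were untreated. Rats of the cirrhosis group (n = 5) inhaled carbon tetrachloride (CCl4), a solvent that kills hepatocytes, for 12 weeks and received phenobarbital in the drinking water at 0.35 g/L. Rats of the cirrhosis & eplerenone group (n = 5) had the same 12 weeks of CCl4 and phenobarbital and, from week 8, eplerenone at 100 mg/kg by mouth, a blocker of the mineralocorticoid receptor. CCl4-treated rats weighed 75 to 100 g at the start. Their livers were taken 7 to 10 days after the last exposure, so their values describe livers after the exposure had ended. Any difference from control carries CCl4 and phenobarbital together, which cannot be told apart. The sequenced rats were picked from a larger cohort by how well cirrhosis induction or eplerenone treatment had worked, so the groups are not a random draw. The labels list 5 controls, and control rat 1 is not analysed here. Rats are named below by group and by the replicate number of their label.

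A resting liver cell enters the division cycle when D-type cyclins with CDK4 and CDK6, then cyclin E with CDK2, release the E2F transcription factors, which switch on the genes for DNA replication. Cyclin A and cyclin B with CDK1 then drive the cell into mitosis, where kinetochore and spindle proteins separate the chromosomes. Adult hepatocytes rarely divide, and the liver is known for re-entering the cycle after tissue loss or toxic injury. CDK inhibitors of the Cip/Kip and INK4 families hold the cycle back. Because each library was made from a whole piece of liver, more dividing cells and more transcript per dividing cell cannot be told apart.

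Promoters of the members were read from RefSeq (build GRCr8, not the build of the counts) as a window from 250 bases before to 50 bases after the start, and 38 of the 48 members matched. The CCAAT box (CCAAT) and the cell cycle homology region or CHR (TTTGAA), both known from genes of the late cell cycle, were searched for on both strands, beside the E2F site known from genes of replication (TTTCCCGC, TTTCGCGC, TTTGCCGC or TTTGGCGC). E2F matches on opposite strands could overlap each other, and each promoter was counted once. The CHR was found in 13 of 19 promoters of the mitotic, kinetochore, spindle and marker genes (68.4%), against 12.3% of the 11221 promoters of tested genes and 18.3% of all 33469 promoters. A CCAAT box together with a CHR stood in 10 of these 19 (52.6%), against 5% of promoters of tested genes and 7.41% of all promoters. The E2F site was present in 6 of 10 promoters of replication and deoxynucleotide genes (60%), against 3.89% of promoters of tested genes and 2.14% of all promoters, and in 1 of the 19 mitotic promoters, that of Cdk1. The CCAAT box, with or without a CHR, was in 14 of the 19 mitotic promoters (73.7%) and 7 of the 10 replication promoters (70%). It was in 37.2% of promoters of tested genes and 37.5% of all promoters. A match is a description of the letters, not of binding.

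The promoters below show the contrast. They were chosen for their matches: Cdk1, Top2a, Prc1 and Birc5 for mitosis, with CCAAT boxes and a CHR, and Mcm5 and Mcm6 for replication, with CCAAT boxes and an E2F site. Each is the 250 bases upstream of the start, 5′ to 3′ on the strand of the gene, and capitals mark every motif match that lies within them, on either strand. Cdk1 lies on the plus strand at chr20:19265043-19265292, Top2a on the minus strand at chr10:84473094-84473343, Prc1 on the plus strand at chr1:143659231-143659480 and Birc5 on the plus strand at chr10:103571896-103572145. Mcm5 lies on the plus strand at chr19:13488563-13488812 and Mcm6 on the minus strand at chr13:42404353-42404602.
Cdk1: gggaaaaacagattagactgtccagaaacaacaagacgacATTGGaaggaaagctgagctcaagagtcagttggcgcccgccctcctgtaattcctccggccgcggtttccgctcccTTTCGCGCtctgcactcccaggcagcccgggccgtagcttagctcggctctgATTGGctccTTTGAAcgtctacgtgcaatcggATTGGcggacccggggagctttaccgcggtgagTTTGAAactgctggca
Top2a: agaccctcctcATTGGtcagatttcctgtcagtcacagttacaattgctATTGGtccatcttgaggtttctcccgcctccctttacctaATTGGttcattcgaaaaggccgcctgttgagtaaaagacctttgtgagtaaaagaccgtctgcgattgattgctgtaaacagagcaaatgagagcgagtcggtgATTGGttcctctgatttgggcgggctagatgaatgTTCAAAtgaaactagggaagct
Prc1: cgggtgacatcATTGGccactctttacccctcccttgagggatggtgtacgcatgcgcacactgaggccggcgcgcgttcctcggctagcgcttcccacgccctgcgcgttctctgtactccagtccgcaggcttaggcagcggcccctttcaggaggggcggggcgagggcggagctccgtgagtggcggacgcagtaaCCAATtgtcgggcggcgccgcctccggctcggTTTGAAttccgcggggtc
Birc5: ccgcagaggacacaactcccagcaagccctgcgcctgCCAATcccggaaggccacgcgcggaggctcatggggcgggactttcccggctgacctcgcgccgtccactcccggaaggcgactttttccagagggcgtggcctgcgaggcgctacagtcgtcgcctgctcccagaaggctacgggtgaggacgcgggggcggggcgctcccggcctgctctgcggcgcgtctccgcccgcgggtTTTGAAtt
Mcm5: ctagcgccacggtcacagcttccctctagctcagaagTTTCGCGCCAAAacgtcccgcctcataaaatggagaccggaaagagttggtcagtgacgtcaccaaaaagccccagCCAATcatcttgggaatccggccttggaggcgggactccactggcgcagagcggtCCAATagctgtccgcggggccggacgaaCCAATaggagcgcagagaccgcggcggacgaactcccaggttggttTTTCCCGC
Mcm6: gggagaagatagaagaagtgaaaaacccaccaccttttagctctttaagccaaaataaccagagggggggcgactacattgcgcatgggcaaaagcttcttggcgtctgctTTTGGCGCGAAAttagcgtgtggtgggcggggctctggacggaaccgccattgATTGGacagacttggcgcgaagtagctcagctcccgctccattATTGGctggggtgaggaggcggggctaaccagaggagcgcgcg

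Levels are given as FPM, counted reads per 1000000 reads of a library size scaled by the trimmed mean of M values (TMM). Libraries held 16157491 to 21574767 counted reads, so 3 counts, the floor used here, were worth 0.121 to 0.191 FPM. Of the 48 members, 27 had 10 or more counts in every control, 16 in some controls and 5 in no control, so for the last 5 and some of the 16 the fold rests on a few control reads. The 16 and the 5 passed the filter on low counts only with the help of CCl4-treated livers, where most of them were higher. Genes whose FDR (false discovery rate) in edgeR's quasi-likelihood test was under 0.05 were called differentially expressed genes (DEGs). Log2 fold changes (log2FC) are given with their standard error (SE), and means with the standard deviation (SD).

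Each functional group had members that were called higher in cirrhosis than in control, and no member was called lower, except Cdk2 when cirrhosis rat 5 was left out. Of the 48 members, 27 passed the test as higher in cirrhosis and 0 as lower, where 13.4% of all genes tested were called higher and 6.71% lower. Some of the 27 passed the filter on low counts only through CCl4-treated livers, so this count is partly set by the filter. The median log2FC of the members was 1.92, against -0.01 over all genes tested, with 45 of the 48 log2FC positive and 3 negative. DESeq2 called 36 members higher there, the same 27 and Aurka, Bub1, Cdk4, Foxm1, Kif23, Mcm2, Ndc80, Pcna and Rrm1, and 0 lower, where it called 17.9% of all genes higher and 9.94% lower. In the cirrhosis & eplerenone group 4 members were higher than in control and 0 were lower, where 4.33% of all genes were called higher and 0.895% lower. The median there was 1.27 against 0.01. The call count in this group depended on the tool, since DESeq2 called 16 members higher, the same 4 and 12 others, and 0 lower, where it called 8.45% of all genes higher and 2.12% lower. Between cirrhosis & eplerenone and cirrhosis no member passed the test in either direction with edgeR or DESeq2, where edgeR called 0.0139% of all genes higher and 0% lower and DESeq2 0.264% and 0.25%. At an unadjusted p below 0.05, 6 members had lower and 0 had higher levels there, where 1100 of all 14417 genes were lower and 976 higher. The median log2FC there was -0.70 against 0.01 over all genes. Cirrhosis & eplerenone and cirrhosis were both compared with the same 4 controls. Leaving out control rat 5 lowered the 27 calls in cirrhosis to 16, while all genes called higher fell from 1939 to 1035. Without cirrhosis & eplerenone rat 2 the 4 calls in that group rose to 17, and all genes called higher from 624 to 995.

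When each of the 14 livers was left out in turn, 16 of the 27 members called in cirrhosis had an FDR below 0.05 in every fit: Ccnd1, Mcm5, Mcm6, Ccnb1, Cdk1, Nuf2, Cenpe, Cenpf, Aurkb, Plk1, Kif11, Mki67, Top2a, Cdkn2a, Cdkn2b and Cdkn2c. The other 11 missed the threshold in some fits, with a highest FDR of 0.0532 for Birc5 and 0.0675 for Kif20a, both without control rat 5 alone. Prc1 (highest FDR 0.0644) and Ccna2 (0.0661) missed it without control rat 3 or 5, and Ccne1 (0.0541) without control rat 2, 3 or 5. Tk1 (0.105), Bub1b (0.0867), Mcm3 (0.0751), Cdc20 (0.117), Tpx2 (0.126) and Ttk (0.125) missed it in 6 to 10 fits, among them those without control rat 2, 4 or 5 and without cirrhosis rat 4. Of the 4 members called in cirrhosis & eplerenone against control, Kif11 and Cdkn2c passed in every fit, Ccnd1 missed the threshold without control rat 3 (FDR 0.0556) and Cdkn2b without control rat 5 (FDR 0.0609).

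**Figure D1:**
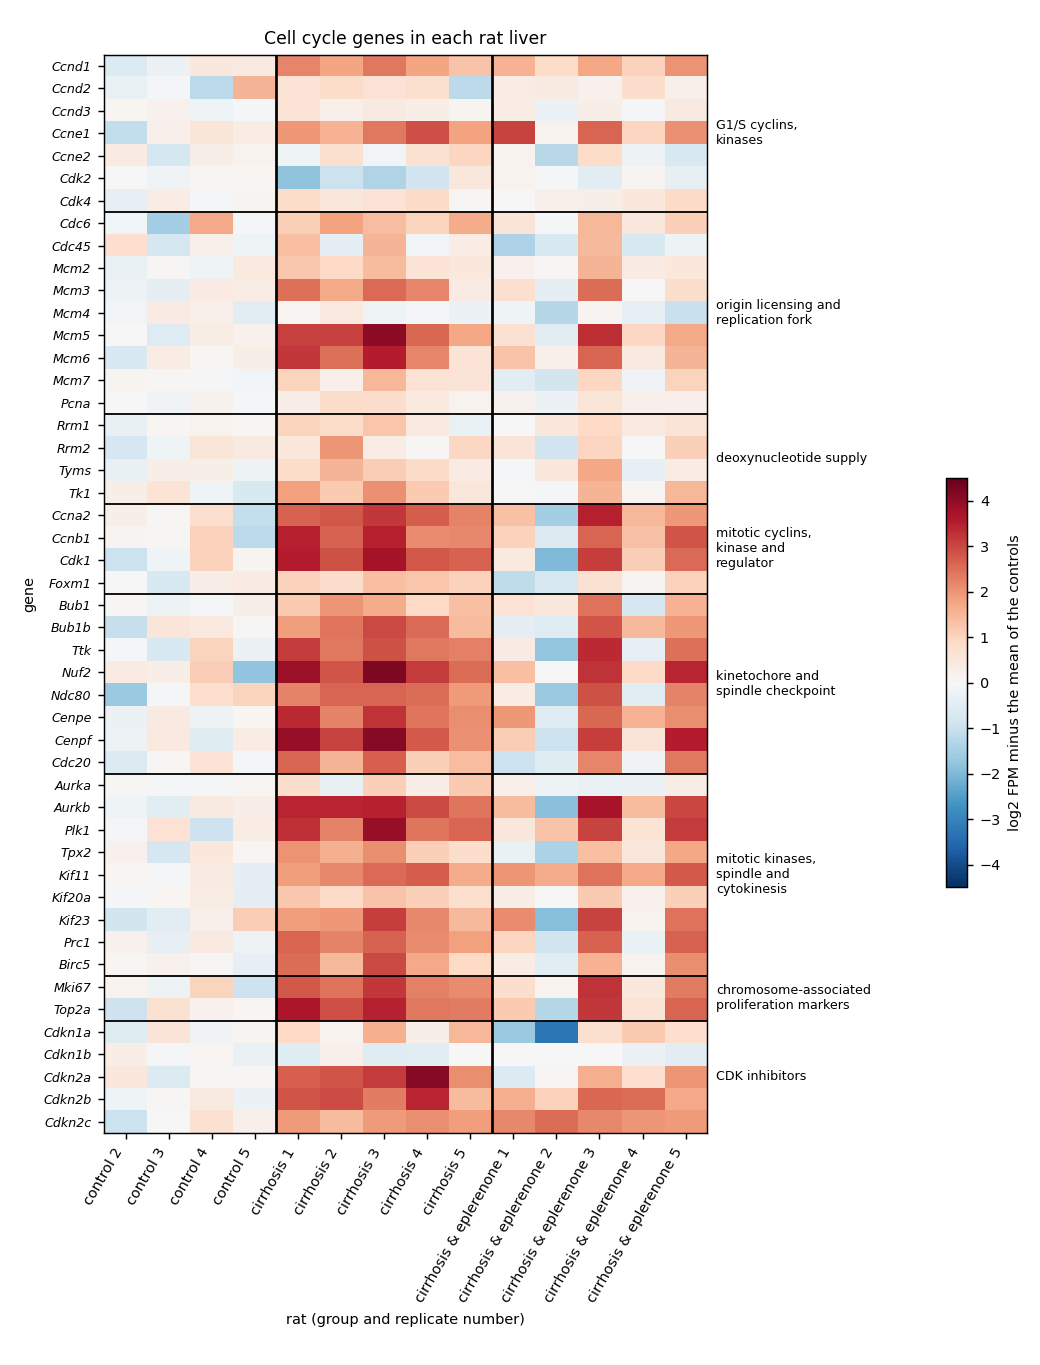
Log2 FPM of each of the 48 members (rows, by function) in each of the 14 livers (columns, by group), minus the mean of the 4 controls. Red is above and blue below the control mean, and most mitotic rows are red in all 5 cirrhosis livers and in cirrhosis & eplerenone rats 3 and 5, pale in rats 1 and 4, and partly blue in rat 2.

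The 2 proliferation markers were both DEGs in cirrhosis. Mki67 encodes Ki-67, which coats mitotic chromosomes and marks cycling cells in pathology. Mki67 stood at 2.71, 2.08, 5.01 and 1.21 FPM in control rats 2 to 5, at 17.3, 13.7, 22.8, 12.3 and 11.01 FPM in cirrhosis rats 1 to 5 and at 4.29, 2.75, 24.2, 3.44 and 12.7 FPM in cirrhosis & eplerenone rats 1 to 5. Every cirrhosis liver lay above every control, whereas cirrhosis & eplerenone rats 1, 2 and 4 lay within the control range and rats 3 and 5 within or above the cirrhosis range. Against control, Mki67 was 5.59-fold higher in cirrhosis (log2FC 2.48 ± 0.61 (SE), FDR = 0.0133). In cirrhosis & eplerenone its log2FC from control was 1.79 ± 0.60 (SE), FDR = 0.0978. Top2a encodes topoisomerase II alpha, which untangles replicated chromosomes. Top2a stood at 0.663, 2.26, 1.59 and 1.46 FPM in control rats 2 to 5, at 18.4, 10.9, 16.1, 7.59 and 7.38 FPM in cirrhosis rats 1 to 5 and at 3.27, 0.501, 13.3, 2.14 and 9.07 FPM in cirrhosis & eplerenone rats 1 to 5. Again every cirrhosis liver exceeded every control, and the cirrhosis & eplerenone livers ran from below the lowest control to within the cirrhosis range. The fold of Top2a in cirrhosis over control was 8.05 (log2FC 3.01 ± 0.71 (SE), FDR = 0.0104). Its log2FC from control in cirrhosis & eplerenone was 1.92 ± 0.69 (SE), FDR = 0.12.

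**Figure D2:**
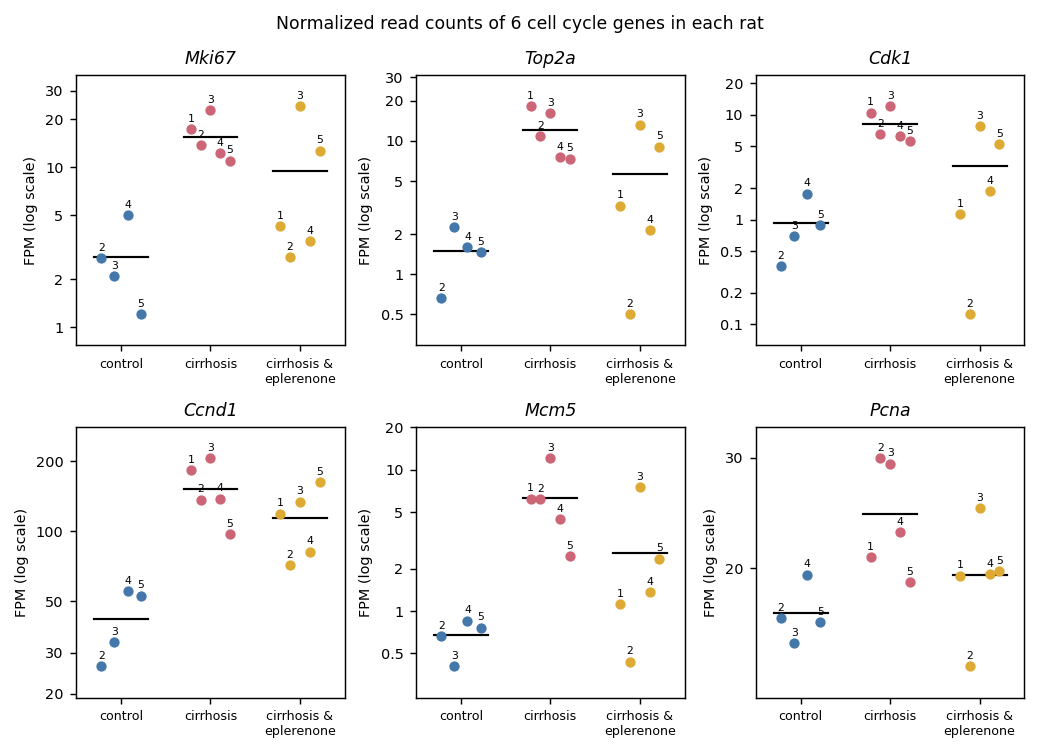
FPM (log scale) of 6 members in each liver, with replicate numbers beside the points and a line at the group mean. Mki67, Top2a, Cdk1, Ccnd1 and Mcm5 are above all controls in all 5 cirrhosis livers, and Pcna is not.

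Of the mitotic cyclins with their kinase and regulator, 3 of 4 were DEGs in cirrhosis, and the median log2FC of the 4 was 2.85. Cdk1 encodes the kinase that triggers mitosis, and its promoter above carries CCAAT boxes, CHRs and an E2F site. Control livers held 0.362, 0.694, 1.77 and 0.890 FPM of Cdk1, cirrhosis livers 10.5, 6.53, 12.2, 6.26 and 5.65 FPM and cirrhosis & eplerenone livers 1.12, 0.125, 7.89, 1.86 and 5.25 FPM. The lowest cirrhosis liver, rat 5, stood above the highest control, and the cirrhosis & eplerenone livers spread from below all controls in rat 2 to within the cirrhosis range in rat 3. Cdk1 had a log2FC of 3.14 ± 0.79 (SE), FDR = 0.0142 in cirrhosis, 8.82-fold the control level. In cirrhosis & eplerenone the log2FC of Cdk1 from control was 1.81 ± 0.76 (SE), FDR = 0.184. Ccna2 encodes cyclin A2, which serves both S phase and mitosis. Ccna2 reached 0.483, 0.405, 0.733 and 0.127 FPM in the 4 controls, against 2.995, 3.35, 4.37, 3.13 and 2.20 FPM in the cirrhosis livers and 1.12, 0.0626, 5.46, 1.30 and 1.80 FPM in those given eplerenone as well. Its groups of control and cirrhosis did not overlap. Cirrhosis exceeded control 7.24-fold for Ccna2 (log2FC 2.86 ± 0.77 (SE), FDR = 0.0201). Ccnb1 encodes cyclin B1, the partner of CDK1. In the controls Ccnb1 measured 0.784, 0.752, 1.59 and 0.254 FPM, in cirrhosis 9.15, 5.14, 9.33, 3.54 and 3.57 FPM and in cirrhosis & eplerenone 1.58, 0.438, 5.02, 1.98 and 5.74 FPM. Control and cirrhosis were apart here too. Against control, Ccnb1 was 7.22-fold higher in cirrhosis (log2FC 2.85 ± 0.67 (SE), FDR = 0.0104). Foxm1, a transcription factor of late cell cycle genes, measured 2.003 ± 0.621 (SD, n = 4) FPM in control and 4.29 ± 0.655 (SD, n = 5) FPM in cirrhosis, with log2FC 1.10 ± 0.42 (SE), FDR = 0.0735, which missed the threshold.

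Kinetochore and spindle checkpoint genes had 6 of 8 members called higher in cirrhosis, with a median log2FC of 2.72. Cenpf encodes a large kinetochore protein that accumulates towards mitosis. Cenpf stood at 0.181, 0.347, 0.122 and 0.318 FPM in control rats 2 to 5, at 4.94, 2.65, 5.66, 2.15 and 1.31 FPM in cirrhosis rats 1 to 5 and at 0.613, 0.0626, 2.83, 0.395 and 3.82 FPM in cirrhosis & eplerenone rats 1 to 5. All cirrhosis livers lay above all controls, where the reads were few. The fold of Cenpf in cirrhosis over control was 13.5 (log2FC 3.75 ± 0.91 (SE), FDR = 0.012). Nuf2 encodes a subunit of the NDC80 complex, which holds microtubules at the kinetochore. Control livers held 0.362, 0.347, 0.672 and 0 FPM of Nuf2, cirrhosis livers 5.32, 2.49, 6.63, 3.13 and 1.96 FPM and cirrhosis & eplerenone livers 0.818, 0.250, 3.36, 0.564 and 3.82 FPM. Control rat 5 had no read, and cirrhosis & eplerenone rats 3 and 5 stood within the cirrhosis range. Nuf2 had a log2FC of 3.47 ± 0.86 (SE), FDR = 0.0133 in cirrhosis, 11.1-fold the control level. Cenpe encodes a kinesin of the kinetochore. Cenpe reached 0.181, 0.347, 0.183 and 0.254 FPM in the 4 controls, against 3.44, 1.51, 3.18, 1.69 and 1.37 FPM in the cirrhosis livers and 1.23, 0.125, 1.94, 0.903 and 1.37 FPM in those given eplerenone as well. The ranges of control and cirrhosis did not meet. Cirrhosis exceeded control 9.02-fold for Cenpe (log2FC 3.17 ± 0.63 (SE), FDR = 0.00421). Bub1b, Ttk and Cdc20, whose products run or obey the spindle checkpoint, were also higher in cirrhosis, with log2FC of 2.59, 2.86 and 1.97. All 3 calls were among those lost without some single livers. Bub1 and Ndc80 had log2FC of 1.54 ± 0.53 (SE), FDR = 0.0524 and 2.30 ± 0.86 (SE), FDR = 0.068.

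Mitotic kinases and genes of spindle and cytokinesis had 7 of 9 members called higher in cirrhosis, with a median log2FC of 2.31. Aurkb encodes Aurora B, the kinase of the chromosomal passenger complex. In the controls Aurkb measured 0.241, 0.173, 0.427 and 0.382 FPM, in cirrhosis 4.16, 4.24, 4.32, 3.03 and 2.02 FPM and in cirrhosis & eplerenone 0.971, 0, 5.14, 0.959 and 3.11 FPM. In cirrhosis & eplerenone rat 2 it had no read, while rat 3 exceeded every cirrhosis liver. Against control, Aurkb was 11.4-fold higher in cirrhosis (log2FC 3.52 ± 0.87 (SE), FDR = 0.0135). Plk1 encodes Polo-like kinase 1, which acts from mitotic entry to cytokinesis. Plk1 stood at 0.302, 0.578, 0.122 and 0.445 FPM in control rats 2 to 5, at 4.16, 1.92, 6.47, 2.21 and 2.56 FPM in cirrhosis rats 1 to 5 and at 0.511, 0.939, 3.44, 0.564 and 3.72 FPM in cirrhosis & eplerenone rats 1 to 5. Cirrhosis and control did not overlap, and cirrhosis & eplerenone rats 1, 2 and 4 lay between them or within the control range. The fold of Plk1 in cirrhosis over control was 9.39 (log2FC 3.23 ± 0.72 (SE), FDR = 0.00755). Prc1 encodes a protein that bundles the microtubules of the central spindle. Control livers held 1.15, 0.752, 1.34 and 0.827 FPM of Prc1, cirrhosis livers 6.66, 5.06, 6.74, 4.72 and 3.87 FPM and cirrhosis & eplerenone livers 2.04, 0.501, 6.88, 0.790 and 6.88 FPM. Rats 3 and 5 of cirrhosis & eplerenone were above every cirrhosis liver, and rats 2 and 4 were within or below the control range. Prc1 had a log2FC of 2.40 ± 0.65 (SE), FDR = 0.0202 in cirrhosis, 5.29-fold the control level. Birc5 (survivin, a passenger complex subunit), Tpx2 (a spindle assembly factor) and Kif20a (a kinesin of cytokinesis) were higher in cirrhosis as well, with log2FC of 2.14, 1.57 and 1.05. Kif23, a kinesin of the central spindle, had a log2FC of 2.31 ± 0.89 (SE), FDR = 0.0754.

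Kif11, the kinesin that pushes spindle poles apart, passed the test in both CCl4-treated groups. Kif11 reached 0.784, 0.694, 0.977 and 0.509 FPM in the 4 controls, against 2.94, 3.59, 4.75, 5.33 and 2.56 FPM in the cirrhosis livers and 3.22, 2.57, 4.45, 2.60 and 5.52 FPM in those given eplerenone as well. All livers of both CCl4-treated groups were above all controls. Cirrhosis exceeded control 5.14-fold for Kif11 (log2FC 2.36 ± 0.36 (SE), FDR = 0.0012). In cirrhosis & eplerenone it was 4.92-fold higher than in control, with log2FC 2.30 ± 0.36 (SE), FDR = 0.00388, and its log2FC between cirrhosis & eplerenone and cirrhosis was -0.06 ± 0.30 (SE), FDR = 0.927, with a sign that turned without some single livers.

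**Figure D3:**
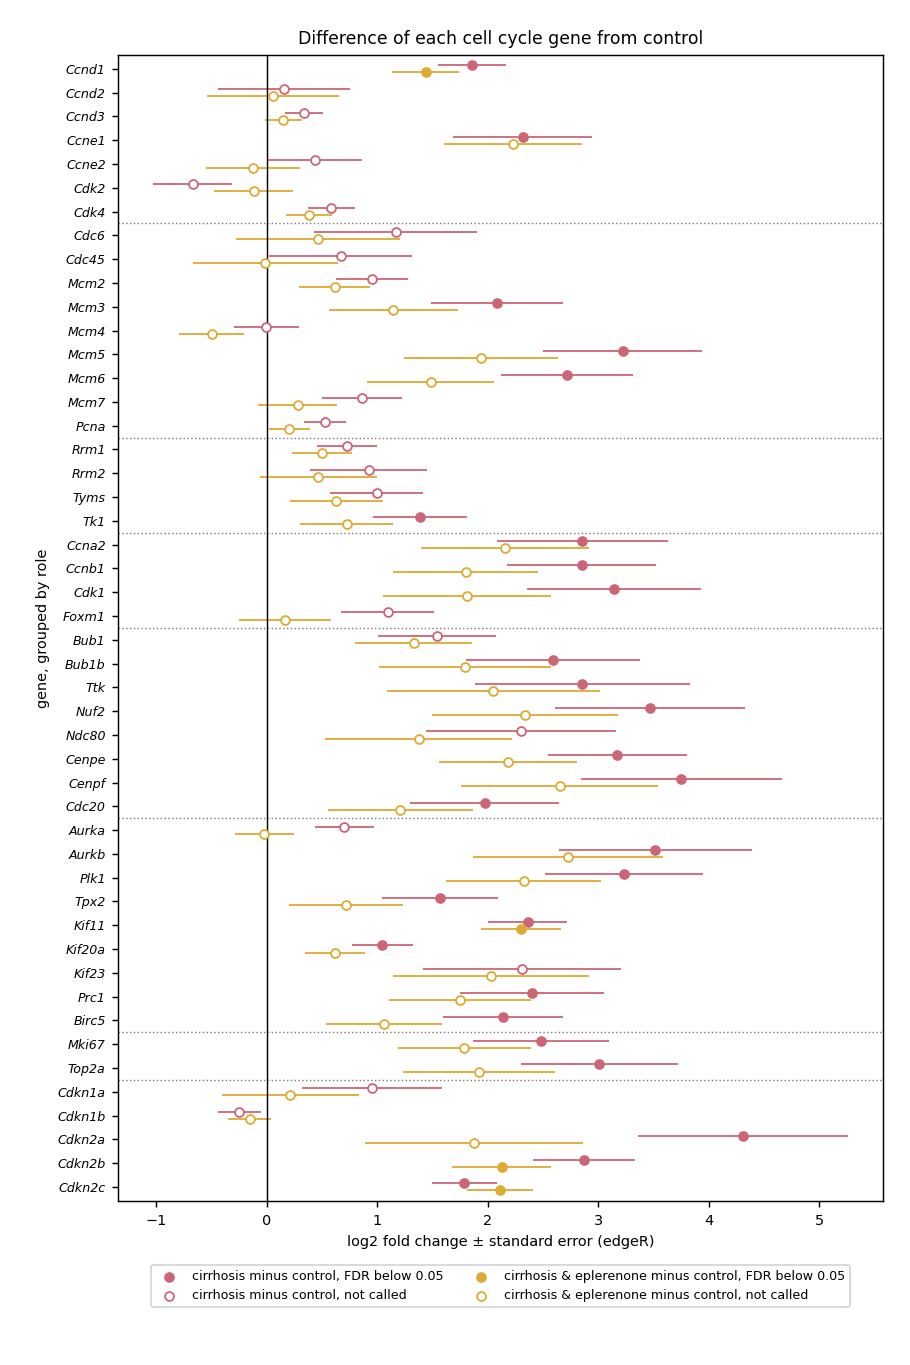
Log2FC from control (horizontal axis, ± SE) of each of the 48 members in cirrhosis (red) and in cirrhosis & eplerenone (yellow), filled where FDR was below 0.05. Of the red points 27 are filled and of the yellow points 4 are filled, those of Ccnd1, Kif11, Cdkn2b and Cdkn2c.

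Genes of origin licensing and the replication fork had 3 of 9 members called higher in cirrhosis, and the median log2FC of the 9 was 0.95. All 3 encode subunits of the MCM helicase, the hexamer that unwinds DNA ahead of the fork. Mcm5 and Mcm6 carry the E2F sites printed above. In the controls Mcm5 measured 0.663, 0.405, 0.855 and 0.763 FPM, in cirrhosis 6.27, 6.24, 12.1, 4.46 and 2.44 FPM and in cirrhosis & eplerenone 1.12, 0.438, 7.57, 1.35 and 2.35 FPM. Every cirrhosis liver stood above the controls, rat 5 the least, and cirrhosis & eplerenone rat 2 lay within the control range. Against control, Mcm5 was 9.33-fold higher in cirrhosis (log2FC 3.22 ± 0.72 (SE), FDR = 0.00795). Mcm6 stood at 0.905, 1.97, 1.65 and 1.84 FPM in control rats 2 to 5, at 14.8, 9.02, 18.9, 7.49 and 2.38 FPM in cirrhosis rats 1 to 5 and at 3.88, 1.81, 9.84, 2.09 and 4.59 FPM in cirrhosis & eplerenone rats 1 to 5. Cirrhosis rat 5 was again the closest of its group to the controls. The fold of Mcm6 in cirrhosis over control was 6.58 (log2FC 2.72 ± 0.59 (SE), FDR = 0.00724). In cirrhosis & eplerenone its log2FC from cirrhosis was -1.23 ± 0.51 (SE), FDR = 0.316, at an unadjusted p of 0.028. Control livers held 1.09, 0.925, 1.71 and 1.65 FPM of Mcm3, cirrhosis livers 7.77, 4.53, 8.09, 6.41 and 1.73 FPM and cirrhosis & eplerenone livers 2.25, 0.939, 7.93, 1.30 and 2.35 FPM. Cirrhosis rat 5 stood just above the highest control, and cirrhosis & eplerenone rat 3 well above the other 4 livers of its group. Mcm3 had a log2FC of 2.08 ± 0.60 (SE), FDR = 0.0259 in cirrhosis, 4.24-fold the control level.

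The other subunits of the same hexamer did not pass the test in edgeR, though Mcm2 did with DESeq2, and both Mcm2 and Mcm7 did with library sizes of total counts. Their log2FC in cirrhosis were 0.95 ± 0.33 (SE), FDR = 0.0501 for Mcm2, 0.86 ± 0.36 (SE), FDR = 0.0947 for Mcm7 and -0.0038 ± 0.29 (SE), FDR = 0.993 for Mcm4. Mcm4 measured 7.08 ± 1.78 (SD, n = 4) FPM in control and 7.06 ± 1.46 (SD, n = 5) FPM in cirrhosis. Pcna encodes the sliding clamp that keeps DNA polymerase on its template. Pcna reached 16.6, 15.2, 19.5 and 16.4 FPM in the 4 controls, against 20.9, 29.9, 29.3, 22.8 and 18.98 FPM in the cirrhosis livers and 19.5, 13.96, 24.9, 19.6 and 19.8 FPM in those given eplerenone as well. Cirrhosis rat 5 lay within the control range, and the groups overlapped. The log2FC was 0.53 ± 0.19 (SE), FDR = 0.0596 for cirrhosis against control, and 0.21 ± 0.19 (SE), FDR = 0.608 for cirrhosis & eplerenone against control. Cdc6 and Cdc45, which load and activate the helicase, had log2FC of 1.17 ± 0.74 (SE), FDR = 0.254 and 0.67 ± 0.65 (SE), FDR = 0.456.

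Among the genes that supply deoxynucleotides, 1 of 4 was called higher in cirrhosis. Tk1 encodes the thymidine kinase of S phase. In the controls Tk1 measured 10.6, 13.4, 7.57 and 5.41 FPM, in cirrhosis 31.8, 20.1, 36.9, 19.9 and 12.6 FPM and in cirrhosis & eplerenone 8.59, 8.14, 25.3, 9.37 and 25.03 FPM. Cirrhosis rat 5 lay within the control range, as did cirrhosis & eplerenone rats 1, 2 and 4. Cirrhosis exceeded control 2.62-fold for Tk1 (log2FC 1.39 ± 0.43 (SE), FDR = 0.0336). Rrm1 and Rrm2, the subunits of ribonucleotide reductase, had log2FC of 0.73 ± 0.27 (SE), FDR = 0.0663 and 0.92 ± 0.53 (SE), FDR = 0.212, and Tyms, thymidylate synthase, had 1.00 ± 0.42 (SE), FDR = 0.101.

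At the G1/S step 2 of 7 members were called higher in cirrhosis. Ccnd1 encodes cyclin D1, which links growth signals to the cycle. Ccnd1 stood at 26.2, 33.4, 55.4 and 52.7 FPM in control rats 2 to 5, at 182, 137, 206, 138 and 97.1 FPM in cirrhosis rats 1 to 5 and at 119, 71.7, 134, 81.5 and 162 FPM in cirrhosis & eplerenone rats 1 to 5. All 10 livers of the CCl4-treated groups were above all 4 controls. Against control, Ccnd1 was 3.63-fold higher in cirrhosis (log2FC 1.86 ± 0.31 (SE), FDR = 0.00168). In cirrhosis & eplerenone Ccnd1 was 2.71-fold higher than in control (log2FC 1.44 ± 0.30 (SE), FDR = 0.014). Ccne1 encodes cyclin E1, the partner of CDK2 at the start of S phase. Control livers held 0.121, 0.463, 0.610 and 0.509 FPM of Ccne1, cirrhosis livers 1.77, 1.35, 2.43, 3.59 and 1.61 FPM and cirrhosis & eplerenone livers 3.94, 0.438, 2.91, 0.847 and 1.91 FPM. Every cirrhosis liver exceeded every control, and cirrhosis & eplerenone rat 1, low for the mitotic genes, held the highest value of all livers. The fold of Ccne1 in cirrhosis over control was 4.99 (log2FC 2.32 ± 0.63 (SE), FDR = 0.0203). In cirrhosis & eplerenone its log2FC from control was 2.23 ± 0.63 (SE), FDR = 0.0518.

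The remaining G1/S members had small or uncertain differences. Ccnd2 and Ccnd3, the other D-type cyclins, had log2FC of 0.16 ± 0.60 (SE), FDR = 0.862 and 0.34 ± 0.17 (SE), FDR = 0.157 in cirrhosis. Ccne2 had 0.44 ± 0.43 (SE), FDR = 0.466 and Cdk4, the kinase partner of cyclin D1, 0.59 ± 0.21 (SE), FDR = 0.0598. Cdk2 was the only member of this group with a negative value in cirrhosis. Cdk2 reached 10.98, 10.2, 11.97 and 11.96 FPM in the 4 controls, against 3.16, 5.75, 4.37, 6.21 and 16.01 FPM in the cirrhosis livers and 12.6, 10.7, 7.89, 12.2 and 8.63 FPM in those given eplerenone as well. In cirrhosis rats 1 to 4 it lay below all controls and in rat 5 above them. The log2FC was -0.67 ± 0.36 (SE), FDR = 0.184 for cirrhosis against control, and -0.12 ± 0.36 (SE), FDR = 0.902 for cirrhosis & eplerenone against control. Without cirrhosis rat 5 the log2FC was -1.21 and Cdk2 was called lower.

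Of the 5 CDK inhibitors 3 were called higher in cirrhosis. The INK4 genes Cdkn2a, Cdkn2b and Cdkn2c, whose products bind CDK4 and CDK6, were all higher, and the Cip/Kip genes Cdkn1a and Cdkn1b did not pass the test, also with library sizes of total counts, where the sign of Cdkn1b turned. Cdkn2a encodes p16-INK4a and, from another reading frame, ARF, which counts per gene do not separate. In the controls Cdkn2a measured 0.121, 0, 0.0610 and 0.0636 FPM, in cirrhosis 0.943, 1.06, 1.35, 2.72 and 0.595 FPM and in cirrhosis & eplerenone 0, 0.0626, 0.405, 0.169 and 0.546 FPM. The 4 controls held 4 reads between them, so the size of the fold is loosely set. The ratio of summed counts per library size was 22.2 for cirrhosis against control, with an exact 95% interval of 8.46 to 82.7 for counting error alone, and 4.11 (1.41 to 16.3) for cirrhosis & eplerenone against control. Cdkn2a had a log2FC of 4.31 ± 0.95 (SE), FDR = 0.00737 in cirrhosis, 19.9-fold the control level. By FPM its cirrhosis & eplerenone livers all lay below the cirrhosis livers, with log2FC -2.44 ± 0.73 (SE), FDR = 0.312 between them and an unadjusted p of 0.00417. Cirrhosis rat 5 and cirrhosis & eplerenone rats 3 and 5 each held 10 reads of Cdkn2a. The gap between 0.595 FPM and 0.546 or 0.405 FPM in these livers therefore came from library scaling alone.

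Cdkn2b lies beside Cdkn2a on chromosome 5 and encodes p15-INK4b, a target of TGF-beta. Cdkn2b stood at 0.603, 0.752, 0.977 and 0.572 FPM in control rats 2 to 5, at 5.77, 6.20, 3.94, 8.77 and 2.08 FPM in cirrhosis rats 1 to 5 and at 2.45, 1.56, 4.82, 4.52 and 2.57 FPM in cirrhosis & eplerenone rats 1 to 5. Both CCl4-treated groups were above all controls. Cirrhosis exceeded control 7.32-fold for Cdkn2b (log2FC 2.87 ± 0.46 (SE), FDR = 0.00144). In cirrhosis & eplerenone it was 4.36-fold higher than in control, with log2FC 2.13 ± 0.45 (SE), FDR = 0.0147. Cdkn2c encodes p18-INK4c. Control livers held 0.965, 2.02, 3.24 and 2.35 FPM of Cdkn2c, cirrhosis livers 7.71, 5.47, 7.71, 8.67 and 7.56 FPM and cirrhosis & eplerenone livers 9.30, 11.9, 9.31, 8.13 and 7.76 FPM. Its lowest value in any CCl4-treated liver exceeded the highest control, and cirrhosis & eplerenone rat 2, the lowest liver for Cdk1 and Top2a, was the highest here. Against control, Cdkn2c was 3.45-fold higher in cirrhosis (log2FC 1.79 ± 0.29 (SE), FDR = 0.00168). In cirrhosis & eplerenone the fold from control was 4.32 (log2FC 2.11 ± 0.30 (SE), FDR = 0.00289), and the log2FC from cirrhosis was 0.32 ± 0.26 (SE), FDR = 0.53.

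Cdkn1a encodes p21, the inhibitor that p53 switches on. Cdkn1a reached 20.4, 45.2, 27.2 and 32.5 FPM in the 4 controls, against 56.5, 33.5, 92.3, 36.4 and 84.6 FPM in the cirrhosis livers and 9.30, 3.07, 50.1, 67.5 and 51.4 FPM in those given eplerenone as well. The groups overlapped, with cirrhosis & eplerenone rats 1 and 2 below every control. The log2FC was 0.95 ± 0.63 (SE), FDR = 0.276 for cirrhosis against control, and 0.21 ± 0.62 (SE), FDR = 0.897 for cirrhosis & eplerenone against control. Cdkn1b encodes p27, which is abundant in resting cells. In the controls Cdkn1b measured 36.8, 28.2, 32.1 and 24.6 FPM, in cirrhosis 20.7, 35.6, 20.8, 21.3 and 29.6 FPM and in cirrhosis & eplerenone 30.1, 29.5, 30.4, 25.003 and 21.6 FPM. Its groups overlapped throughout. The log2FC was -0.25 ± 0.19 (SE), FDR = 0.357 for cirrhosis against control, and -0.15 ± 0.19 (SE), FDR = 0.732 for cirrhosis & eplerenone against control.

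**Figure D4:**
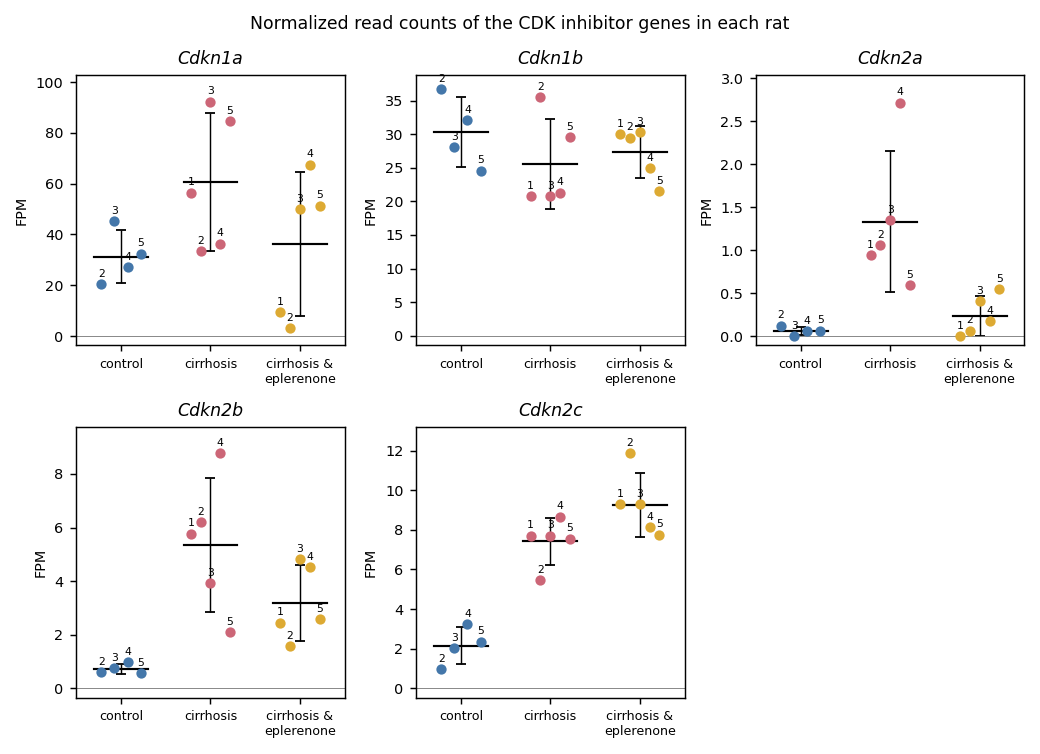
FPM (linear scale from 0) of the 5 CDK inhibitor genes in each liver, with replicate numbers, group means (lines) and SD (bars). Cdkn2b and Cdkn2c are above all controls in all 10 CCl4-treated livers, Cdkn2a in all 5 cirrhosis livers, and Cdkn1a and Cdkn1b overlap between groups.

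The livers of the cirrhosis & eplerenone group were spread widely. As a description, the mean log2 difference from control over the 43 members other than CDK inhibitors was -0.21 to 0.29 in the controls and 1.21 to 2.14 in cirrhosis. In cirrhosis & eplerenone rats 1 to 5 it was 0.54, -0.45, 1.93, 0.38 and 1.53. Between rats its SD was 0.21 for the controls, 0.35 for cirrhosis and 0.95 for the rats given eplerenone. The 5 values of the kinetochore genes were 0.54, -0.70, 2.83, 0.34 and 2.46, against 1.87 to 3.05 in cirrhosis. For the replication genes they were 0.18, -0.42, 1.62, 0.14 and 0.62, against 0.63 to 1.83. For the CDK inhibitors they were 0.31, 0.07, 1.43, 1.23 and 1.18, against 1.37 to 1.88, so that rat 4 stood close to rats 3 and 5 there and not for the mitotic genes. In this split rats 1 and 2 also differ from rats 3 to 5 in the label prefix described below, so spread between rats and prefix cannot be told apart.

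**Figure D5:**
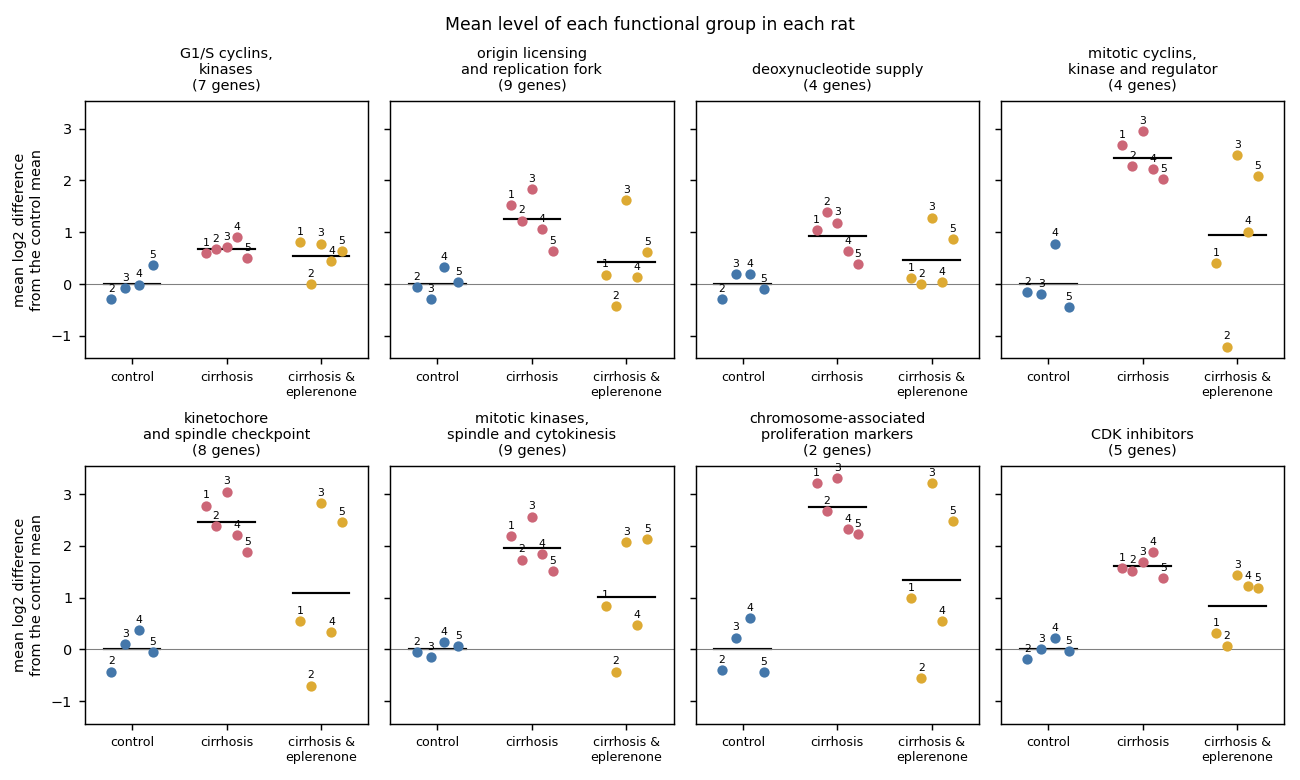
Mean log2 difference from the control mean over the genes of each functional group (panels), for each liver, with replicate numbers and a line at the group mean. In the 4 mitotic and marker panels cirrhosis & eplerenone rats 3 and 5 sit among the cirrhosis livers and rats 1, 2 and 4 lower, and cirrhosis rat 5 is the lowest cirrhosis liver in all 8 panels.

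The sample descriptions carry a numeric prefix whose meaning is not stated, 13 or 16 for controls and 15 or 20 for CCl4-treated rats, so prefix and CCl4 treatment cannot be told apart. Both CCl4-treated groups hold rats of prefix 15 and of prefix 20. Prefix 15 is carried by cirrhosis rats 1 to 3 and cirrhosis & eplerenone rats 1 and 2. Prefix 20 is carried by cirrhosis rats 4 and 5 and cirrhosis & eplerenone rats 3 to 5. Within prefix 15 (3 cirrhosis rats and 2 cirrhosis & eplerenone rats) the mean over the 43 members differed by -1.84 on the log2 scale between cirrhosis & eplerenone and cirrhosis, and within prefix 20 (2 and 3 rats) by -0.095. Over the CDK inhibitors the mean differed by -1.40 and -0.35, and Cdkn1a by -3.36 and 0.0083. For Mcm6 these differences were -2.31 and 0.11, for Cdkn2a -3.16 and -1.64, and for Aurka, an activator of mitotic entry, -0.51 and -0.81. Aurka had the second smallest unadjusted p of the members between these groups, after Cdkn2a. Aurka stood at 9.77, 8.73, 8.91 and 9.99 FPM in control rats 2 to 5, at 16.4, 7.43, 19.6, 11.4 and 21.4 FPM in cirrhosis rats 1 to 5 and at 10.9, 8.01, 7.65, 7.85 and 11.7 FPM in cirrhosis & eplerenone rats 1 to 5. Cirrhosis rats 1, 3, 4 and 5 lay above the controls and rat 2 below them, and cirrhosis & eplerenone overlapped both. Its log2FC was -0.72 ± 0.25 (SE), FDR = 0.312 from cirrhosis to cirrhosis & eplerenone, and 0.70 ± 0.27 (SE), FDR = 0.0732 from control to cirrhosis. With the prefix as a block among CCl4-treated rats no member was called, where 2 of all 13795 genes were called higher and 0 lower. The median log2FC of the members was -0.88 in that fit.

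Other genes of the cell cycle, from a list of 100 of which 93 were tested, were described beside the members. In cirrhosis 36 were higher and 0 lower, against the 13.4% and 6.71% of all genes, with a median log2FC of 1.07, and 14 had negative values. Among them were Cdca3 (log2FC 3.75), a trigger of mitotic entry, and Racgap1 (3.55), a regulator of cytokinesis. In cirrhosis & eplerenone 3 were higher and 1 was lower than in control, shares near the 4.33% and 0.895% of all genes, and DESeq2 called 14 higher and 1 lower. The 3 were Pkmyt1 (2.18), an inhibitory kinase of CDK1, Espl1 (1.84), the protease separase, and Smc4 (0.92), a condensin subunit. Between cirrhosis & eplerenone and cirrhosis none of the 93 was called with edgeR. At an unadjusted p below 0.05, 16 were lower and 0 higher, where 1100 of all 14417 genes were lower and 976 higher. Without control rat 5 the 36 higher genes became 16, and without cirrhosis & eplerenone rat 2 the 3 became 14. In those fits 1035 and 995 of all genes were called higher. Without control rat 2, 3 or 5 none of the 93 was called in cirrhosis & eplerenone, where 344, 260 and 180 of all genes were called higher. Of 20 targets of p53, 15 were tested, and in cirrhosis 3 were higher and 1 was lower, with a median log2FC of 0.20, shares near the 13.4% and 6.71% of all genes. The 4 called genes were Ddit4 (1.65), Btg2 (1.21) and Fas (1.06), a death receptor, and Plk2 (-1.68), which was also lower in cirrhosis & eplerenone (-2.05).

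Markers of cholangiocytes, of neutrophils and of T and NK lymphocytes were mostly higher in cirrhosis, and those of other cell types were called in part, in both directions or not at all. Of all genes tested 13.4% were called higher there and 6.71% lower. Negative log2FC were found for 4 of 9 macrophage, 3 of 4 endothelial and 6 of 8 hepatocyte markers. All 5 cholangiocyte markers were higher in cirrhosis, and their summed level was 13.9 to 22.3 FPM in control, 41.5 to 134 FPM in cirrhosis and 44.4 to 85.4 FPM in cirrhosis & eplerenone. Of 7 markers of T and NK lymphocytes 5 were higher in cirrhosis, with sums of 4.28 to 8.32, 7.97 to 17.05 and 4.69 to 11.97 FPM. The other 2 had negative log2FC, and DESeq2 called 1 of them lower. Of 8 stellate cell and myofibroblast markers 4 were higher in cirrhosis, with sums of 148 to 254, 259 to 495 and 381 to 513 FPM. In this list 2 markers had negative log2FC, both at an unadjusted p below 0.05 in edgeR and not called. Of 9 macrophage markers 2 (Trem2 and Gpnmb) were higher and 1 (Cd163) lower, with sums of 210.2 to 362, 204 to 386 and 189 to 437 FPM. Both tested neutrophil markers, S100a8 and S100a9, were higher, with sums of 0.427 to 0.983, 0.938 to 18.7 and 1.001 to 24.04 FPM, and Mpo and Elane had no read in any control. None of the 5 tested B lymphocyte and plasma cell markers, nor of the 3 tested erythroid markers, was called, with sums of 6.36 to 23.6, 6.13 to 52.3 and 7.96 to 29.9 and of 162 to 539, 59.9 to 1026 and 91.4 to 1148 FPM. Of 4 endothelial markers Vwf was higher and Kdr lower, with sums of 133 to 162, 89.2 to 235 and 126 to 161 FPM. Of 8 hepatocyte markers, which were abundant in every library, Hnf4a was lower, with sums of 135808 to 150475, 73738 to 141420.0 and 73188 to 132872 FPM, led by Alb. In cirrhosis & eplerenone rats 1 to 5 the T and NK sum was 6.34, 4.69, 9.47, 8.80 and 11.97 FPM, highest in rats 3 and 5. The cholangiocyte sum was 81.1, 44.4, 85.4, 45.8 and 70.1 FPM, so that rat 1 was close to rats 3 and 5. The part of these cell types in the differences of the cell cycle genes was not tested.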

How the data were processed

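Livers of 14 rats (4 control, 5 cirrhosis, 5 cirrhosis & eplerenone) were analysed, and 1 control with a label was not analysed here. The authors enriched poly(A) RNA, sequenced it, aligned reads to the rn6 genome with HISAT2 2.1.0 and counted reads over exons per gene with featureCounts, multi-mapping reads included. The deposited values are these raw counts, with no filter, so genes with near-identical copies elsewhere may share reads. Whether counting used strand is not given in the sources used here. Depth was 16157491 to 21574767 counted reads per liver, and intervals from counts cover counting error only.

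From the counts, edgeR 4.0.16 (R 4.3.3) kept 14417 genes with filterByExpr (smallest count 10), scaled libraries by TMM and fitted all 3 groups in 1 quasi-likelihood model without covariates. The Benjamini-Hochberg FDR was taken across the 14417 genes, and a gene with FDR below 0.05 was called. SE is the absolute log2FC over the square root of F. Per-liver log2 values used a prior count of 2. P-values measure the spread between these rats. DESeq2 1.42.0, other scalings, filters and blocks, and leaving out each liver were alternatives, and the code was tested on simulated data. Members and lists were chosen with earlier results of these data known. Every member may be named, and values in every liver are given for Mki67, Top2a, Cdk1, Ccnd1, Pcna and Cdkn1a, for the 3 called members of each functional group with the largest absolute log2FC, for the 3 members with the smallest unadjusted p between cirrhosis & eplerenone and cirrhosis, and for each CDK inhibitor. Kif11 and Cdk2 were added after their values were seen. The marker lists were those of cholangiocytes, T and NK lymphocytes, B lymphocytes and plasma cells, macrophages, neutrophils, stellate cells and myofibroblasts, endothelium, erythroid cells and hepatocytes. Values of some genes on the list of other cell cycle genes are not reported here.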

Additional observations from a re-analysis of the deposited data

Results flagged for a closer look

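Of 72 sets of values examined (24 members in 3 groups), 2 held a liver far from the rest of its group. Chance alone marks about 1 group in 20, so 2 of 72 is below the share from chance. Both were cirrhosis & eplerenone rat 3, in genes of the same MCM helicase, so they are not separate observations. It measured 7.57 FPM of Mcm5, while the other 4 livers of the group lay between 0.438 and 2.35 FPM. For Mcm3 it measured 7.93 FPM, and the others lay between 0.939 and 2.35 FPM.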

How the results depend on the processing

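No called result and no median changed direction under any alternative, while some log2FC near 0 that were not called did. With library sizes of total counts the log2FC of Cdkn1b was 0.048 in cirrhosis and 0.18 in cirrhosis & eplerenone against control, and in the latter Aurka had 0.29 and Cdk2 0.18, while Ccne1 had 0.0067 between the CCl4-treated groups. Aurka in cirrhosis & eplerenone against control was 0.019 with at least 10 counts in every sample, 0.045 with 4 rats per group and -0.12 to 0.045 leaving out 1 liver at a time. Cdkn1a in that comparison was -0.035 with the replicate block and -0.14 to 0.51 leaving out 1 liver. Between the CCl4-treated groups the log2FC ran from -0.46 to 0.18 for Ccne1 and from -0.25 to 0.090 for Kif11 leaving out 1 liver. Requiring at least 10 counts in every sample left 25 members, with 11 higher in cirrhosis than in control (median log2FC 1.06) and 2 higher in cirrhosis & eplerenone (median 0.67), since low members drop out of the test. There 1332 of all 11199 genes were called higher in cirrhosis and 308 in cirrhosis & eplerenone. DESeq2 called 16 members higher in cirrhosis & eplerenone than in control, where it called 8.45% of all genes higher. Library sizes of total counts called 10, where 1282 of all 14417 genes were higher. With them the median log2FC of all genes moved from -0.01 to 0.28 in cirrhosis and from 0.01 to 0.32 in cirrhosis & eplerenone. Leaving out 1 liver at a time gave 16 to 32 members higher and 0 to 1 lower in cirrhosis, the 1 being Cdk2 without cirrhosis rat 5. In cirrhosis & eplerenone it gave 3 to 17 higher, 17 without its rat 2. Over all genes these fits called 1035 to 2590 higher in cirrhosis and 180 to 995 higher in cirrhosis & eplerenone. The median log2FC between cirrhosis & eplerenone and cirrhosis then ran from -0.999 (without its rat 3) to -0.47 (without its rat 2), with 0 members called. With 4 rats per group, cirrhosis rat 5 and cirrhosis & eplerenone rat 3 were left out together. Then 1 member was lower in cirrhosis than in control, where 2100 of all 14126 genes were lower. Against cirrhosis, 1 member (Cdk2) was higher and 5 (Mcm3, Mcm5, Mcm6, Tyms and Cdkn2a) were lower in cirrhosis & eplerenone. That fit called 630 of all 14126 genes higher and 664 lower there, so calls rose across all genes too. By mean log2 difference from control over the 43 members other than CDK inhibitors, cirrhosis rat 5 was lowest of its group (1.21). Cirrhosis & eplerenone rat 3 was highest of its group (1.93). Leaving both out therefore widens the difference of the members, so these calls are no separate support for it. The cause of the gain in calls was not tested. Of 13 same-numbered pairs of rats, 3 had a correlation of deviations above 0.1 (range -0.33 to 0.19). Differently numbered pairs were not compared, so these values cannot show whether replicate numbers pair the rats. With the replicate block 21 members were higher in cirrhosis and 4 in cirrhosis & eplerenone than in control, and 0 were called between the CCl4-treated groups. Over all 14417 genes 1211 and 232 were called higher, and 0 between the CCl4-treated groups.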
